A study of Mus musculus with 18 samples.

Results

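MicroRNA levels in the eye were set against those in the testicle, using 6 libraries of each organ and 12 of the 18 libraries of the series. Membership followed the organ label alone, left and right were combined, and scaling and filtering used only these 12. The groups were left eye, right eye, left testicle and right testicle, each with 3 libraries from male C57BL/6 mice aged 8 to 12 weeks, for which the labels name no treatment and no genetic change. The labels give the organ and side but not the dissected part, the number of animals per library, or whether the libraries of both sides share mice. If so, n = 6 counts mice more than once, and the SEs and p-values between organs overstate the replication. Left and right testicle libraries with the same number deviated together from their group means (r 0.25 to 0.30 over miRNAs in the 3 pairs), while same-numbered eye libraries did not (r -0.44 to -0.12). In a whole-organ library, fewer cells of a type and less RNA per cell cannot be told apart.

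MicroRNAs are short RNAs cut from hairpin precursors, each of which can give a 5p and a 3p mature strand. Loaded onto Argonaute proteins, they pair with messenger RNAs mainly through bases 2 to 8, the seed, and lower the output of those messages, so miRNAs with the same seed can share targets. The vertebrate eye is known for miRNAs of photoreceptors (miR-183, miR-96 and miR-182), pigment epithelium (miR-204 and miR-211), neurons (miR-124 and miR-9), and lens and cornea (miR-184 and miR-205). The testicle is known for the miR-34 and miR-449 family of meiotic and postmeiotic germ cells, for miR-202 of the gonads and for the fast-evolving X-linked miR-506 family.

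The mature sequences below are those of RefSeq (GRCm38.p6), 5′ to 3′, with the seed in capitals. The first lines show the eye-enriched sensory cluster, whose seeds are alike but not identical, and the pair of miR-204 and miR-211, which has a single seed.
miR-183-5p: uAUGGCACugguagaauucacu
miR-96-5p: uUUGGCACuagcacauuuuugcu
miR-182-5p: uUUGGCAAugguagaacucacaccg
miR-204-5p: uUCCCUUUgucauccuaugccu
miR-211-5p: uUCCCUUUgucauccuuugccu

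The testicle-enriched miRNAs below were chosen to show the common seed of the miR-34 and miR-449 family and the unlike seeds of miR-202 and of abundant miR-506 family members.
miR-34a-5p: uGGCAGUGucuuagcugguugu
miR-34b-5p: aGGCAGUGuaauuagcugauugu
miR-449a-5p: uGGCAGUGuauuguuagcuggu
miR-202-5p: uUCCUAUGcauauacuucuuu
miR-470-5p: uUCUUGGAcuggcacuggugagu
miR-465a-3p: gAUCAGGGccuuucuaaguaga
miR-471-3p: uGAAAGGUgccauacuauguau
miR-463-5p: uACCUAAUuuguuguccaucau

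The remaining sets have a single seed each, but their members differed between the organs in different ways, as described below: miR-384-5p with miR-30c-5p, the miR-25/92 group, and miR-29.
miR-384-5p: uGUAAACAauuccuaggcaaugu
miR-30c-5p: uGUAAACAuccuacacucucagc
miR-25-3p: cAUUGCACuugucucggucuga
miR-32-5p: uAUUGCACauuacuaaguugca
miR-92a-3p: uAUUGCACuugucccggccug
miR-92b-3p: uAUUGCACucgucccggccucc
miR-29a-3p: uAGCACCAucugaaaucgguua
miR-29b-3p: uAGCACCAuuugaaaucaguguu
miR-29c-3p: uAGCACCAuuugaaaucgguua

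Total counts were 2451484 to 2680204 in the eye libraries and 952608 to 1893132 in the testicle libraries. Where a miRNA has no count, up to 3 counts remain possible, or 1.12 to 1.22 counts per 1e6 (CPM) in a single eye library and 1.58 to 3.15 CPM in a single testicle library, for counting error only. Across miRNAs, the median Pearson r of log2 CPM was 0.983 for pairs of eye libraries, 0.970 for pairs of testicle libraries and 0.50 for an eye with a testicle library. These points share libraries, and miRNAs are not independent replicates. CPM values below are on library sizes scaled by the trimmed mean of M values (TMM). Right eye 3 had the lowest scaling factor of the eyes (0.999, against 1.18 to 1.39 in the other eyes), and left testicle 1 the fewest counts.

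Of 1431 listed miRNAs, 551 passed the filter on low counts, and 453 of these (82.2%) differed between the organs by edgeR's quasi-likelihood test at an adjusted p under 0.05. In the eye, 212 were higher (38.5%) and 241 were lower (43.7%). The difference was at least 2-fold for 384 (69.7%), 180 of them higher in the eye. For 381 (69.1%) the lowest library of one organ lay above the highest of the other, 178 in favour of the eye and 203 in favour of the testicle. A share near these is therefore the background for any group of miRNAs here. The balance rests on the scaling: with library totals alone, 265 were higher and 201 lower, and the median over the tested miRNAs went from -0.17 to 0.36 (log2 fold change). Small changes are to be read against that shift.

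**Figure D1:**
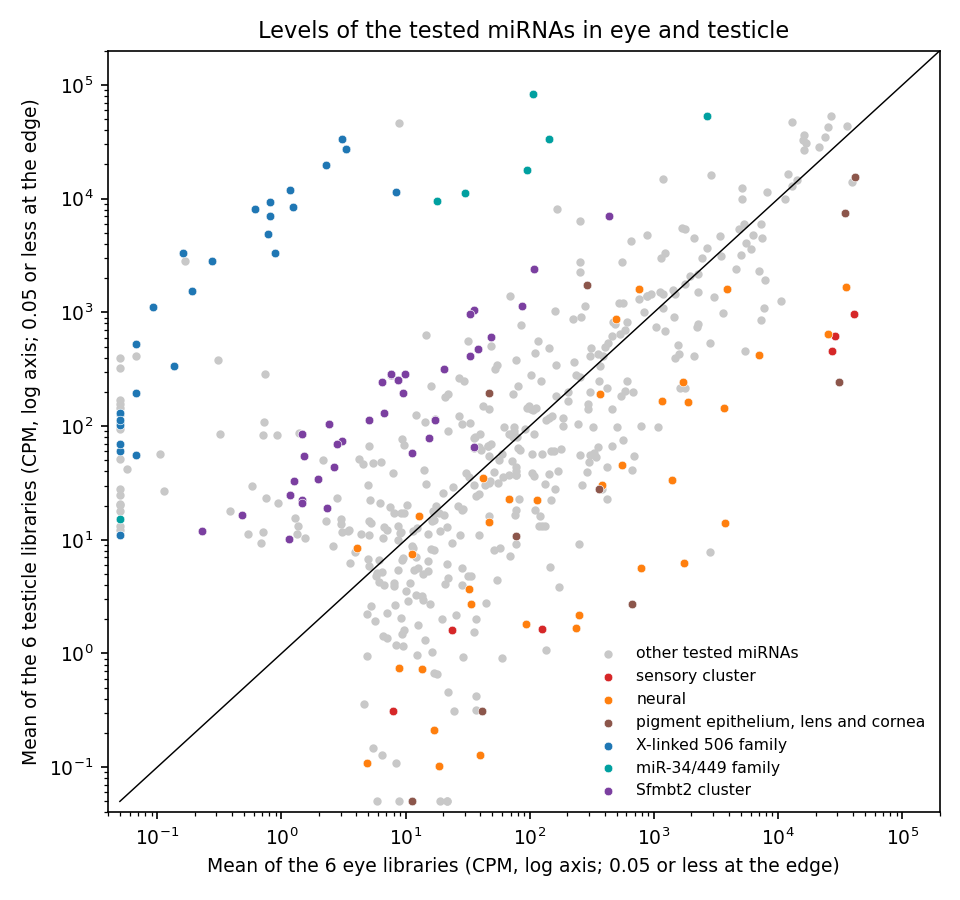
Mean CPM of each of the 551 tested miRNAs in the 6 eye libraries (horizontal) and the 6 testicle libraries (vertical), both on log axes, with 6 lists in colour and the line of equal levels. The 29 miRNAs of the miR-506 family lie far above the line and the 6 of the sensory cluster below it.

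Fold differences were more extreme on the testicle side. Counting miRNAs at 0 in 1 organ by the bound that 3 counts over that organ allow, 53 called miRNAs were at least 100-fold higher in the testicle and 11 at least 100-fold higher in the eye. All 6 eye libraries were at 0 for 23 tested miRNAs, and all 6 testicle libraries for 6. The 10 most counted miRNAs held 39.4% to 43.6% of an eye library and 37.7% to 43.8% of a testicle library, with overlapping ranges.

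The sensory cluster separated the organs in every library. Its precursors Mir183, Mir96 and Mir182 lie on the minus strand of chromosome 6 (GRCm38, 30165918 to 30169737), outside other annotated genes, and the cluster is required for photoreceptor and hair cell maturation. All 6 tested strands were higher in the eye, with a median log2 fold change of 5.46, beside -0.17 over all tested miRNAs. The lowest, median and highest eye libraries had 32351, 40638 and 50737 CPM of miR-183-5p, and the testicle libraries 566, 1000.2 and 1425 CPM (log2 fold change 5.41 with SE 0.25, edgeR adjusted p 1.4e-11). For miR-96-5p these were 24578, 26823 and 31025 CPM in the eye and 281, 406 and 683 CPM in the testicle (log2 fold change 5.88 with SE 0.26, edgeR adjusted p 9.2e-12). For miR-182-5p they were 21302, 28907 and 35037 CPM against 440.3, 606 and 968 CPM (log2 fold change 5.52 with SE 0.22, edgeR adjusted p 3.2e-12). In none of the 3 did an eye library come near a testicle library. Summed over the cluster, the share of all counts was 10.9% to 12.5% in the eye and 0.1001% to 0.255% in the testicle. The rare strands showed the same direction, with miR-182-3p at 117 CPM (93.5 to 157) in the eye and 1.56 CPM (0.762 to 3.19) in the testicle, each a median with its range.

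The miRNAs of pigment epithelium, lens and cornea were higher in the eye for 8 of 10 strands, with the exception of both strands of miR-203. Mir211 lies in an intron of Trpm1 on chromosome 7 (64205806 to 64205911, plus strand), the channel gene of melanocytes and retinal bipolar cells, and Mir204 in an intron of the related Trpm3 on chromosome 19 (22750605 to 22750672, plus strand). Although miR-211-5p and miR-204-5p have the same seed, their contrast differed in size. The eye libraries had 27589, 28846 and 37254 CPM of miR-211-5p and the testicle libraries 76.9, 251 and 399 CPM (log2 fold change 6.98 with SE 0.37, edgeR adjusted p 1.1e-10). For miR-204-5p the values were 35266, 40149.5 and 50508 CPM and 11055, 14911 and 21178 CPM (log2 fold change 1.41 with SE 0.17, edgeR adjusted p 1.1e-06). Neither overlapped between organs, yet the testicle kept a high level of miR-204-5p and little miR-211-5p. Together the pair held 8.77% (8.30% to 9.17%) of the counts in the eye, as median and range, and 1.24% (1.06% to 1.58%) in the testicle.

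Lens and corneal epithelium express miR-184, and stratified epithelia express miR-205 and miR-203. MiR-184-3p had 28587, 34243 and 40868 CPM in the eye and 3267, 7247 and 13294 CPM in the testicle (log2 fold change 2.20 with SE 0.26, edgeR adjusted p 1.1e-06), without overlap. MiR-205-5p had 502, 637 and 820.2 CPM against 1.52, 2.56 and 4.25 CPM (log2 fold change 7.95 with SE 0.26, edgeR adjusted p 5.6e-13). MiR-203-3p, known from differentiating epidermis, went the other way, with 250.4, 288 and 321.97 CPM in the eye and 1607, 1767 and 1937 CPM in the testicle (log2 fold change -2.60 with SE 0.12, edgeR adjusted p 9.5e-12). The epithelial miR-200 family was higher in the eye for 6 of 8 strands and lower for none. Within it miR-200c-3p did not overlap between organs (1490.4 CPM (1359 to 2099.7) against 414 CPM (349 to 511), medians with ranges), while miR-429-3p (log2 fold change 0.59 with SE 0.23, edgeR adjusted p 0.025) and miR-200b-3p (log2 fold change 0.54 with SE 0.19, edgeR adjusted p 0.016) did. Neither of these passed without left eye 1 (edgeR adjusted p 0.083 and 0.051), and miR-429-3p also did not without right eye 3, left testicle 1 or right testicle 1 (edgeR adjusted p 0.055, 0.051 and 0.051). Without right eye 3 and left testicle 1 the family had 3 strands higher and 1 lower in the eye.

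**Figure D2:**
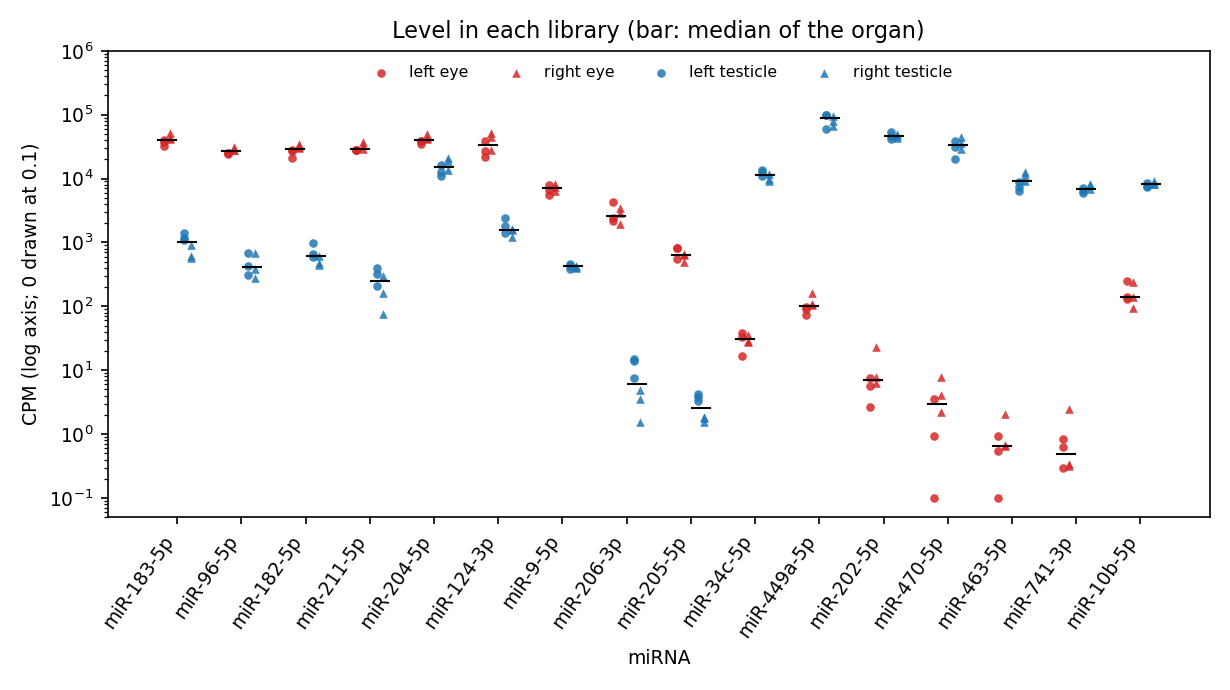
CPM in each of the 12 libraries (log axis) for 16 miRNAs, with circles for left and triangles for right libraries and a bar at the median of each organ. The 9 on the left were higher in the eye and the 7 on the right higher in the testicle, without overlap between the organs.

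Of 35 tested neural miRNAs, 29 were higher in the eye and 2 lower, with a median log2 fold change of 3.60. They held 8.98% to 12.2% of the counts in the eye and 0.604% to 0.710% in the testicle. MiR-124-3p, the most counted miRNA of neurons, had 21351, 33445 and 51772 CPM in the eye and 1195, 1572 and 2453 CPM in the testicle (log2 fold change 4.40 with SE 0.25, edgeR adjusted p 1.9e-10). MiR-9-5p, of neural progenitors and retina, had 5446, 7039.7 and 8201 CPM against 384, 421 and 452 CPM (log2 fold change 4.07 with SE 0.14, edgeR adjusted p 5.8e-13). Both organs were tight for miR-9-5p, and the testicle level was well above the floor of 3 counts. Large contrasts of the list were in miR-384, where the 5p strand had 2355, 3823 and 4646 CPM against 2.29, 14.3 and 25.3 CPM (log2 fold change 8.10 with SE 0.47, edgeR adjusted p 3.2e-10), and in miR-383-5p (222.96 CPM (201.8 to 279) against 1.80 CPM (0 to 3.07), medians with ranges; 7.02). MiR-346-5p had a log2 fold change of 6.79. MiR-219a-2-3p, of myelin-forming oligodendrocytes, ranged widely in the eye, with 198, 841 and 1184 CPM, and all of these were above the testicle's 2.29, 6.44 and 8.51 CPM (log2 fold change 7.11 with SE 0.48, edgeR adjusted p 1.9e-09). The 2 that were lower in the eye were miR-138-5p (-1.09) and miR-128-3p (-0.82).

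Of 7 tested strands of the striated muscle list, 6 were higher in the eye and 1, miR-208b-3p (-1.71), was lower. MiR-206-3p, a skeletal muscle miRNA, had the largest log2 fold change of any miRNA in the eye with at least 100 CPM there. Its eye libraries had 1949, 2622 and 4228 CPM and its testicle libraries 1.52, 6.18 and 15.1 CPM (log2 fold change 8.53 with SE 0.49, edgeR adjusted p 2.8e-10). MiR-133a-3p, common to skeletal and heart muscle, had 359.9, 698 and 847 CPM against 27.4, 38.8 and 62.8 CPM (log2 fold change 4.01 with SE 0.27, edgeR adjusted p 1.3e-09). MiR-1a-3p differed less (log2 fold change 1.52 with SE 0.23, edgeR adjusted p 1.3e-05). The muscle list made up 0.731% to 1.39% of the counts in the eye and 0.0919% to 0.122% in the testicle. Its part in the other eye results was not tested. All 4 strands of the miR-378 family, whose member miR-378a lies within the metabolic regulator gene Ppargc1b, were higher in the eye (miR-378a-3p 3.08).

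Further groups were higher in the eye. All 7 tested strands of the miR-181 family were, with miR-181a-5p at 33459, 39019 and 47273 CPM in the eye and 12048, 14378 and 15437 CPM in the testicle (log2 fold change 1.50 with SE 0.12, edgeR adjusted p 1.1e-08), and with no overlap. Of the imprinted Dlk1-Dio3 region on chromosome 12, which carries maternally expressed miRNA clusters, 50 of 63 tested strands were higher in the eye and 1 (miR-496a-3p, -0.62) was lower (not with library totals alone, nor with left and right summed by number, edgeR adjusted p 0.084), with a median of 2.06. With library totals alone, 56 were higher and 0 lower. Without right eye 3 and left testicle 1 together, 50 were higher and 4 lower. The region was not uniform: miR-434-3p had 1247, 1856 and 2038 CPM against 120.4, 217 and 304 CPM (log2 fold change 3.05 with SE 0.22, edgeR adjusted p 2.8e-09), whereas miR-411-5p had 1718, 2207 and 2799 CPM against 1635, 2235 and 2633 CPM, with overlapping organs (log2 fold change 0.06 with SE 0.16, edgeR adjusted p 0.71). With library totals alone miR-411-5p passed, at 0.63 (edgeR adjusted p 4.7e-04). MiR-379-5p of the same cluster did not pass the test (log2 fold change -0.29 with SE 0.17, edgeR adjusted p 0.12), but was called lower in the eye without left testicle 1 (-0.38, edgeR adjusted p 0.038). MiR-490-5p, from an intron of the muscarinic receptor gene Chrm2, was higher in the eye (129.7 CPM (105 to 171) against 1.25 CPM (0 to 1.76); 6.87).

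**Figure D3:**
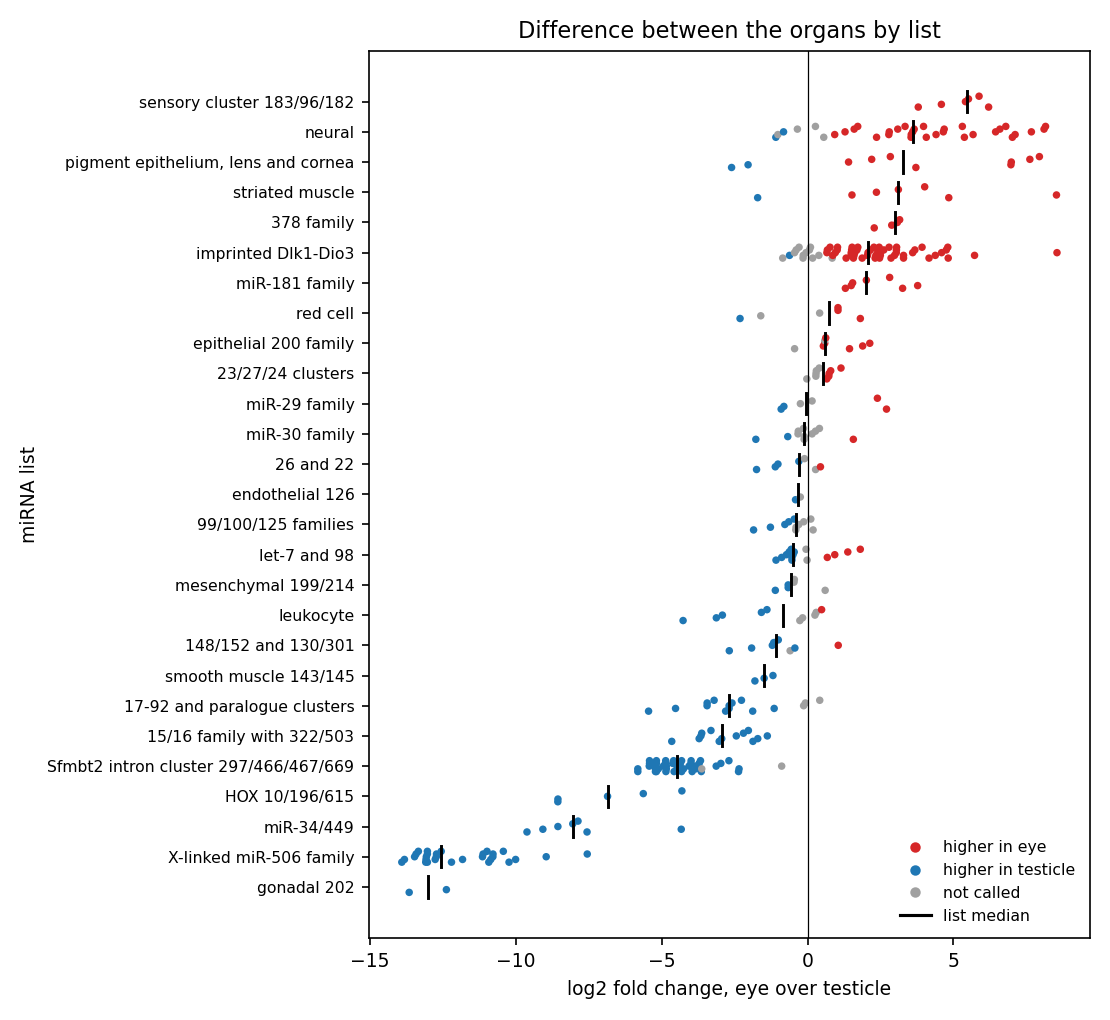
Log2 fold change, eye over testicle, of the tested members of 27 lists, ordered by the list median (black bar), with each point coloured by its call. The miR-506, miR-34 and miR-449, miR-202, miR-15/16 and HOX lists lie wholly on the testicle side, and the sensory, miR-181 and miR-378 lists wholly on the eye side.

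On the testicle side, all 29 tested strands of the X-linked miR-506 family were higher there. Of these, 25 came from 19 precursors between positions 66776757 and 66839125 of the X chromosome (GRCm38). The family held 14.4% to 20.8% of the counts in the testicle libraries and 0.00123% to 0.00649% in the eye libraries, a median log2 fold change of -12.55, also with its 8 members at 0 in the eye set to their bound. MiR-470-5p had 19943, 33690.4 and 45439 CPM in the testicle and 0, 2.91 and 7.76 CPM in the eye (log2 fold change -13.42 with SE 0.72, edgeR adjusted p 3.5e-10). For miR-463-5p these were 6447, 9035 and 12525 CPM and 0, 0.660 and 2.04 CPM (log2 fold change -13.47 with SE 0.47, edgeR adjusted p 7.0e-13). MiR-741-3p had 6015, 6944 and 8137 CPM against 0.297, 0.486 and 2.45 CPM (log2 fold change -13.06 with SE 0.41, edgeR adjusted p 4.0e-13). The eye values lie at or within a few counts of 0, so the size of these folds is less certain than their direction. The 3p strands of the a, b and c members of miR-465 are 1 sequence and had identical counts, 17068, 27586 and 36239 CPM in the testicle, so they cannot be told apart. The 29 strands and the family's share count each of these 3 names. Together the 3 names held 4.99% to 8.06% of testicle counts, part of which may be the same reads counted again. MiR-547-3p, from a separate X-linked precursor, had 2312, 2881 and 6164 CPM against 0.316, 0.894 and 1.63 CPM (log2 fold change -11.82 with SE 0.41, edgeR adjusted p 7.0e-13).

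A pair of miR-506 family strands did not behave as replicates. Their sequences and seeds are unlike:
miR-881-3p: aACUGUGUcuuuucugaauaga
miR-871-3p: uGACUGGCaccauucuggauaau

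In left testicle 1, 2 and 3 and right testicle 1, 2 and 3, in that order, miR-881-3p had 6402, 24.2, 6193, 12.4, 27.7 and 7472 CPM. In the same order miR-871-3p had 52.0, 10542, 34.04, 23194, 14735 and 25.9 CPM. Each library was high for 1 of the pair and low for the other. The opposite strand of the second precursor, miR-871-5p, was even, with 8653, 11680.5 and 16168 CPM. Both 3p strands differed from the eye (log2 fold change -13.90 with SE 2.48, edgeR adjusted p 3.0e-04 for miR-881-3p, log2 fold change -13.81 with SE 2.63, edgeR adjusted p 4.8e-04 for miR-871-3p), with SEs above those of the other strands of the family named here. On left libraries alone, miR-871-3p did not pass the test (edgeR adjusted p 0.14). The same kind of separation, a gap of at least 8-fold (on CPM + 1, for miRNAs reaching 50 CPM in the organ) with at least 2 libraries on each side, occurred in miR-744-5p, miR-532-5p, miR-532-3p, miR-297c-5p and, in the testicle, miR-451a, among 551 miRNAs examined in each organ. In left eye 1, 2 and 3 and right eye 1, 2 and 3, miR-744-5p had 258, 4.74, 342, 2.24, 3.74 and 8.17 CPM, while its testicle libraries had 221, 268 and 382 CPM (log2 fold change -1.43 with SE 1.17, edgeR adjusted p 0.27). Its 3p strand was even in the eye (26.4 CPM (21.2 to 31.4), median with range). MiR-532-5p reached 2123 CPM in the eye and 2027 CPM in the testicle, but was at most 9.39 CPM in 2 eye libraries and at most 19.4 CPM in 4 testicle libraries.

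**Figure D4:**
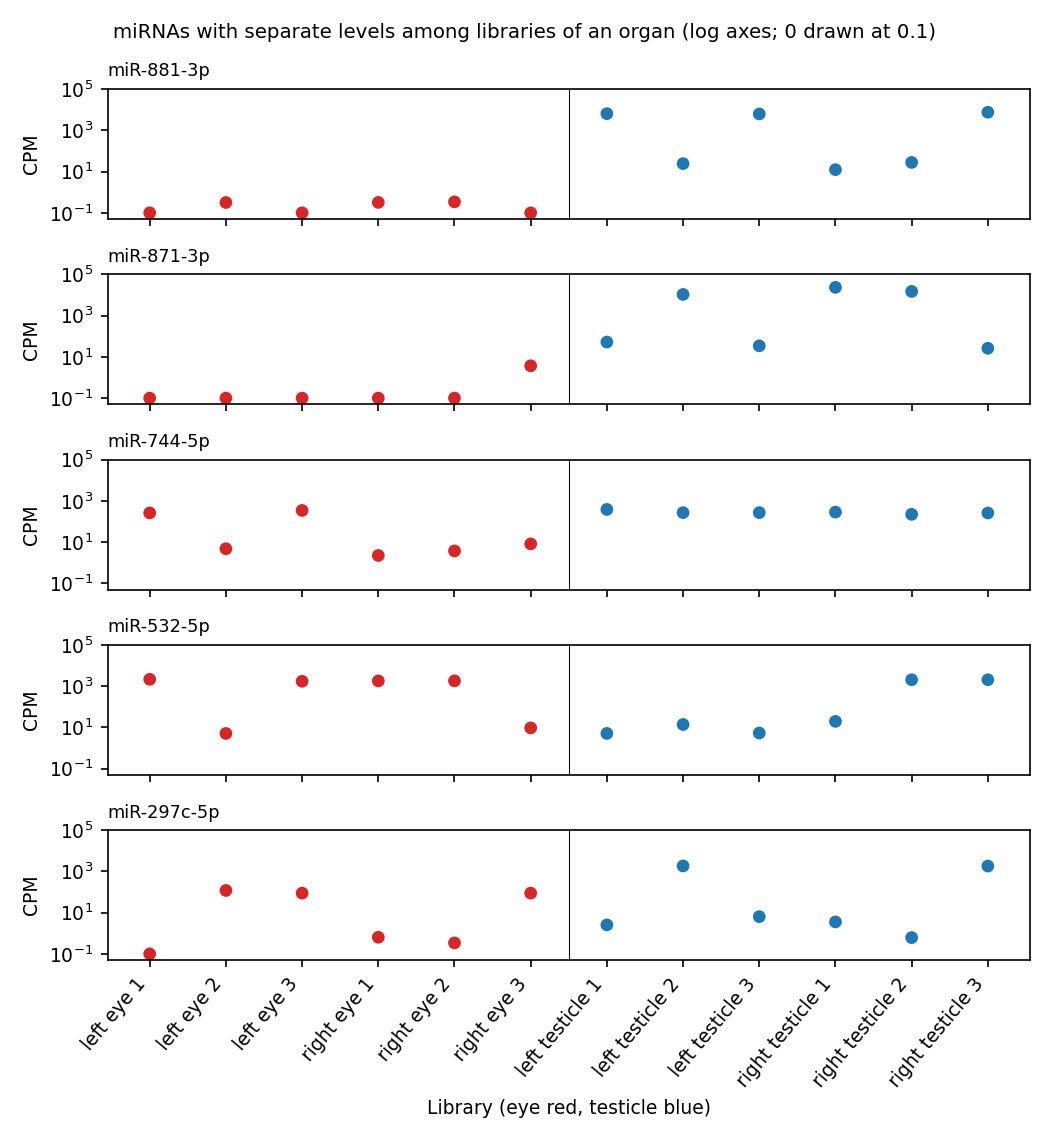
CPM in each library (log axes, 0 drawn at 0.1) of 5 miRNAs whose libraries fall into separate levels within an organ, eye in red and testicle in blue. Testicle libraries high for miR-881-3p are low for miR-871-3p, and the pattern of high libraries differs between the 5 miRNAs.

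All 7 tested strands of the miR-34 and miR-449 family, which acts in spermatogenesis and in multiciliated cells, were higher in the testicle, with a median log2 fold change of -8.05 (-7.87 with the strand at 0 in the eye set to its bound). Mir34b and Mir34c lie on chromosome 9 (51103034 to 51103645), on the opposite strand to an intron of Btg4, and Mir449a in an intron of Cdc20b on chromosome 13 (113037534 to 113037624, plus strand). MiR-449a-5p had 59769.5, 87703 and 100496 CPM in the testicle and 73.6, 101 and 164 CPM in the eye (log2 fold change -9.61 with SE 0.28, edgeR adjusted p 1.4e-13). For miR-34c-5p these were 9081, 11355 and 13663 CPM and 16.9, 31.0 and 38.9 CPM (log2 fold change -8.56 with SE 0.25, edgeR adjusted p 1.4e-13). MiR-34a-5p, the broadly expressed p53-responsive member, kept the highest eye level of the family, with 2193, 2619.8 and 3313 CPM against 42793, 52890.5 and 63872 CPM in the testicle (log2 fold change -4.33 with SE 0.16, edgeR adjusted p 1.0e-12). The list held 15.3% to 19.9% of testicle counts and 0.323% to 0.394% of eye counts.

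MiR-202, known from Sertoli and germ cells, comes from an exon of the noncoding gene Gm2044 on chromosome 7 (139957689 to 139957760, minus strand). MiR-202-5p had 40995, 46312 and 52667 CPM in the testicle and 2.67, 6.92 and 22.9 CPM in the eye (log2 fold change -12.38 with SE 0.52, edgeR adjusted p 8.9e-12). Over all eye libraries miR-202-3p had 3 counts against 19675 in the testicle, a ratio of counts per total of 11308 with a 95% interval (exact Clopper-Pearson, counting error only) of 3869 to 54837. MiR-7232-3p and miR-468-3p, whose precursors neighbour each other outside annotated genes on chromosome 6 (81895590 to 81896676), had no count in any eye library. Their testicle libraries had 292, 385 and 518 CPM of miR-7232-3p and 132, 168 and 226 CPM of miR-468-3p. Against a floor of 3 counts over the 6 eye libraries they were at least 1629-fold and at least 701-fold higher in the testicle. In the pluripotency-associated cluster of chromosome 7 (3218626 to 3220841), the 4 tested strands that could be placed there by name were all higher in the testicle. Other strands of the cluster may be missing from this count. MiR-293-3p had 72.4, 81.3 and 102 CPM in the testicle and 0, 0.330 and 0.551 CPM in the eye (log2 fold change -7.82 with SE 0.29, edgeR adjusted p 1.3e-12).

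The rodent cluster within introns of Sfmbt2 on chromosome 2, an imprinted gene, had 41 of 43 tested strands higher in the testicle and none lower, with a median of -4.48. The other 2, miR-297c-5p and miR-669c-5p, did not pass the test. Many of these strands are near-identical, and 6 of the 10 sets of names with identical counts in the tables fell in this cluster. MiR-467a-5p had 6338, 6819 and 7993 CPM in the testicle and 353, 436 and 530.5 CPM in the eye (log2 fold change -4.00 with SE 0.14, edgeR adjusted p 7.0e-13). For miR-297a-5p, with precursors in introns of Sfmbt2, the values were 853, 1062 and 1166 CPM and 26.2, 33.9 and 43.6 CPM (log2 fold change -4.87 with SE 0.17, edgeR adjusted p 6.0e-13).

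Cell cycle miRNAs were higher in the testicle. All 13 tested strands of the miR-15/16 family with miR-322 and miR-503, which restrains cyclins, were higher there (median -2.94), as were 12 of 15 of the proliferation-promoting miR-17-92 cluster and its paralogues (median -2.69). MiR-16-5p had 40312, 44660.0 and 60392 CPM against 11010.1, 11910.3 and 18083 CPM in eye libraries (log2 fold change -1.87 with SE 0.15, edgeR adjusted p 1.2e-08). The X-linked miR-322-5p differed more, with 11768, 13663 and 18986 CPM against 968, 1168 and 1465 CPM (log2 fold change -3.66 with SE 0.16, edgeR adjusted p 9.2e-12), and so did miR-15b-5p (log2 fold change -4.65 with SE 0.20, edgeR adjusted p 5.2e-12). MiR-19b-3p, the growth-promoting member of miR-17-92, had 2077, 2736 and 3576 CPM against 205.7, 242 and 338 CPM (log2 fold change -3.44 with SE 0.18, edgeR adjusted p 4.9e-11). The 3 not called were miR-92a-3p (-0.13) and both tested strands placed in the X-linked paralogue cluster alone, miR-20b-5p (-0.07) and miR-363-3p (0.42). With library totals alone, 11 strands of the miR-17-92 list were higher in the testicle and 2 higher in the eye.

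All 5 tested miRNAs of the HOX clusters, which mark position along the body axis, were higher in the testicle (median -6.85). MiR-10b-5p had 7496, 8272 and 9067 CPM against 94.7, 139 and 248 CPM in the eye (log2 fold change -5.63 with SE 0.26, edgeR adjusted p 1.1e-11). MiR-196a-5p had 91.5, 148.5 and 1006 CPM against 0.276, 0.478 and 1.70 CPM (log2 fold change -8.55 with SE 0.87, edgeR adjusted p 7.8e-07), and its highest value was left testicle 1. The smooth muscle miRNA miR-143-3p was also higher in the testicle, with 33136, 36623 and 39647 CPM against 12525, 15820.2 and 21033 CPM (log2 fold change -1.19 with SE 0.13, edgeR adjusted p 3.7e-07).

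The X chromosome carried 69 of the tested miRNAs with a known position, of which 48 were higher in the testicle and 13 higher in the eye. X-linked miRNAs held 16.2% to 22.2% of testicle counts and 1.59% to 2.01% of eye counts. Outside the miR-506 family the balance was closer, with 19 of 40 higher in the testicle and 13 higher in the eye. These counts lie near the shares over all tested miRNAs, which were 43.7% and 38.5%. On chromosome 12, which holds the Dlk1-Dio3 region, 56 of 78 tested miRNAs were higher in the eye, and on chromosome 2, which holds the Sfmbt2 cluster, 48 of 59 were higher in the testicle.

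Blood and vessel miRNAs showed no common direction. Endothelial miR-126a-3p had 16941, 21116 and 27762 CPM in the eye and 25554, 28239 and 32368 CPM in the testicle, with overlapping organs (log2 fold change -0.41 with SE 0.13, edgeR adjusted p 0.0087), and with library totals alone its sign turned (0.14) and it did not pass the test (edgeR adjusted p 0.17), nor did it with left and right libraries summed by number (edgeR adjusted p 0.078). Of 6 tested red cell strands, miR-486a-3p (1.81), miR-486a-5p and miR-486b-5p (identical counts, 1.04) were higher in the eye and miR-144-3p (-2.31) was lower. The 5p strands of miR-486 did not pass without left eye 1, 2 or 3, left testicle 3 or right testicle 1 (edgeR adjusted p 0.077, 0.056, 0.069, 0.07 and 0.07), nor as 1 merged name (0.055). MiR-486b-3p (0.41) did not pass. The most counted of the list, miR-451a, did not pass either (log2 fold change -1.60 with SE 0.80, edgeR adjusted p 0.082), though it did without left testicle 1 (-1.83, edgeR adjusted p 0.022) or without right testicle 1 (-1.86, edgeR adjusted p 0.022), and its testicle libraries split, with 269, 6606, 5795, 339, 9041 and 10422 CPM in left 1, 2 and 3 and right 1, 2 and 3. The summed red cell share was 0.0242% and 0.0290% in left and right testicle 1 and at least 0.460% in the other testicle libraries. Of 10 leukocyte miRNAs, 5 were higher in the testicle and 1, miR-150-5p (0.48), in the eye. Over all tested miRNAs, 43.7% were higher in the testicle and 38.5% in the eye. With left libraries only, miR-150-5p did not pass (0.47, edgeR adjusted p 0.11). The part of blood cells in the other results was not tested.

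Let-7, the family of differentiated cells, was abundant in both organs. Its seed held 13.6% (10.6% to 14.7%) of eye counts and 12.5% (8.21% to 15.3%) of testicle counts, as median and range. Of 15 tested let-7 and miR-98 strands, 9 were lower and 4 higher in the eye, but with library totals alone none was lower and 6 were higher. Let-7a-5p had 12497, 16280.4 and 23053 CPM in the eye and 19488, 31667 and 42525 CPM in the testicle (log2 fold change -0.89 with SE 0.20, edgeR adjusted p 6.2e-04), with overlap. Let-7e-5p went the other way (log2 fold change 0.93 with SE 0.22, edgeR adjusted p 0.0013), as did miR-98-5p (log2 fold change 0.68 with SE 0.21, edgeR adjusted p 0.008), and both kept that direction with library totals alone. With right libraries only, neither let-7e-5p (0.65, edgeR adjusted p 0.051) nor miR-98-5p (0.41, edgeR adjusted p 0.16) passed. The difference between let-7a-5p and let-7e-5p within a library does not depend on the scaling.

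Of 51 seed groups with at least 2 tested members, 37 had at least 2 called members, and in 31 of these all called members moved one way. Some of the 31 hold only names with identical counts, which must move alike. Examples are the miR-465 3p strands, miR-199a-3p with miR-199b-3p, and let-7a-1-3p with let-7c-2-3p. Many groups have only 2 members, and the agreement to expect without a common seed was not calculated. The 6 groups with calls in both directions included miR-25, miR-32 and miR-92. MiR-25-3p had 132, 156 and 201 CPM in the eye and 795, 1038 and 1251 CPM in the testicle (log2 fold change -2.69 with SE 0.17, edgeR adjusted p 4.3e-10), and miR-32-5p was lower in the eye as well (log2 fold change -1.97 with SE 0.15, edgeR adjusted p 3.6e-09). MiR-92b-3p, with the same seed, had 955, 1678 and 1965 CPM in the eye and 357, 532 and 674 CPM in the testicle (log2 fold change 1.61 with SE 0.19, edgeR adjusted p 1.4e-06). MiR-92a-3p had 999, 1488 and 1616 CPM against 1383, 1560.1 and 1746 CPM and did not pass the test (log2 fold change -0.13 with SE 0.13, edgeR adjusted p 0.35). With library totals alone it passed, higher in the eye at 0.43 (edgeR adjusted p 0.0074).

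In the miR-29 group, which targets collagens and other matrix genes, miR-29c-3p had 2065, 2525 and 4141 CPM in the eye and 418, 537 and 649 CPM in the testicle (log2 fold change 2.39 with SE 0.18, edgeR adjusted p 4.3e-09). MiR-29b-3p was lower in the eye with overlapping organs (log2 fold change -0.81 with SE 0.19, edgeR adjusted p 9.4e-04), and with library totals alone it did not pass (edgeR adjusted p 0.33). MiR-29a-3p did not pass (log2 fold change 0.15 with SE 0.15, edgeR adjusted p 0.35) and did with library totals alone, at 0.72 (edgeR adjusted p 0.0035). The other mixed groups were let-7, miR-130 with miR-301, miR-26 and miR-362 with miR-329. The seed of miR-384-5p is that of miR-30, of which miR-30c-5p was higher in the eye (log2 fold change 1.57 with SE 0.26, edgeR adjusted p 4.3e-05) and miR-30a-5p did not pass (log2 fold change -0.12 with SE 0.23, edgeR adjusted p 0.64). This seed held 1.01% (0.786% to 1.20%) of eye counts and 0.214% (0.170% to 0.424%) of testicle counts over the 4 members with a sequence. These leave out miR-30b-5p (-0.14) and miR-30d-5p (0.41), which were not called, so the contrast of the whole family is smaller. The miR-30 list, with both strands but without miR-384, held 1.41% to 2.52% of eye counts and 0.900% to 1.60% of testicle counts.

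As a share of counts, the seed of miR-34a-5p, miR-34b-5p and miR-449a-5p (over the 4 members with a sequence, which leave out miR-34c-5p) was 0.342% (0.289% to 0.358%) in the eye and 11.5% (10.9% to 14.4%) in the testicle, and that of miR-15/16 2.04% (1.91% to 2.33%) and 6.55% (5.45% to 7.78%). The miR-181 seed was at 6.70% (6.35% to 7.19%) in the eye and 1.43% (1.29% to 1.48%) in the testicle. These are medians with ranges, described without a test.

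The share of the 5p strand among a precursor's counts was compared by an exact two-sided permutation test over the 924 splits of 12 libraries, whose smallest p is 0.00216. With at least 100 counts of each strand over the 12 libraries, 56 precursors differed (39.2% of those tested) and 87 did not pass, but on simulated counts with 4-fold changes in the strand ratio of some precursors, 18.5% of the calls fell on precursors simulated without a change. With at least 10 counts of each strand on average in each organ, a stricter filter added after seeing that, 27 of 84 differed (32.1%), 13 with a higher 5p share in the eye and 14 with a lower one, and 3.03% of simulated calls were false. No precursor had its strands called in opposite directions by edgeR, and 102 had both strands called the same way. These 102 are not limited to the 84 precursors of the stricter filter. As edgeR called 82.2% of all tested miRNAs, many pairs with both strands called are to be expected. How many would be called the same way without a common precursor was not calculated.

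The major strand differed in every library for miR-324 and miR-669f, though some libraries were close to even. MiR-669f had 45 counts of the 5p and 39 of the 3p strand in left eye 2, and 134 and 156 in right testicle 2. For miR-324 these were 52 and 41 in right testicle 1. MiR-324 had a 5p share of 20.8%, 29.8% and 38.4% in the lowest, median and highest eye library and 55.9%, 67.8% and 74.9% in the testicle (difference -2.23 on the log2 scale, exact permutation p 0.00216, adjusted p 0.012). MiR-669f, of the Sfmbt2 cluster, went the other way, with 53.6%, 69.6% and 89.6% in the eye and 31.2%, 38.9% and 46.2% in the testicle (2.00 on the log2 scale, exact permutation p 0.00216, adjusted p 0.012). MiR-425 had 83.5%, 84.5% and 85.1% against 97.2%, 97.7% and 97.99% (-2.93 on the log2 scale, exact permutation p 0.00216, adjusted p 0.012). This came with a lower 5p level in the eye (log2 fold change -3.18 with SE 0.12, edgeR adjusted p 1.8e-12) and no called difference in the 3p strand (log2 fold change -0.23 with SE 0.14, edgeR adjusted p 0.14). In the Dlk1-Dio3 region both miR-543 and miR-434 had a lower 5p share in the eye. For miR-543 it was 15.2%, 17.7% and 22.1% against 50%, 63.4% and 73.9%, and for miR-434 7.16%, 9.45% and 12.9% against 28.0%, 33.8% and 47.0%.

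**Figure D5:**
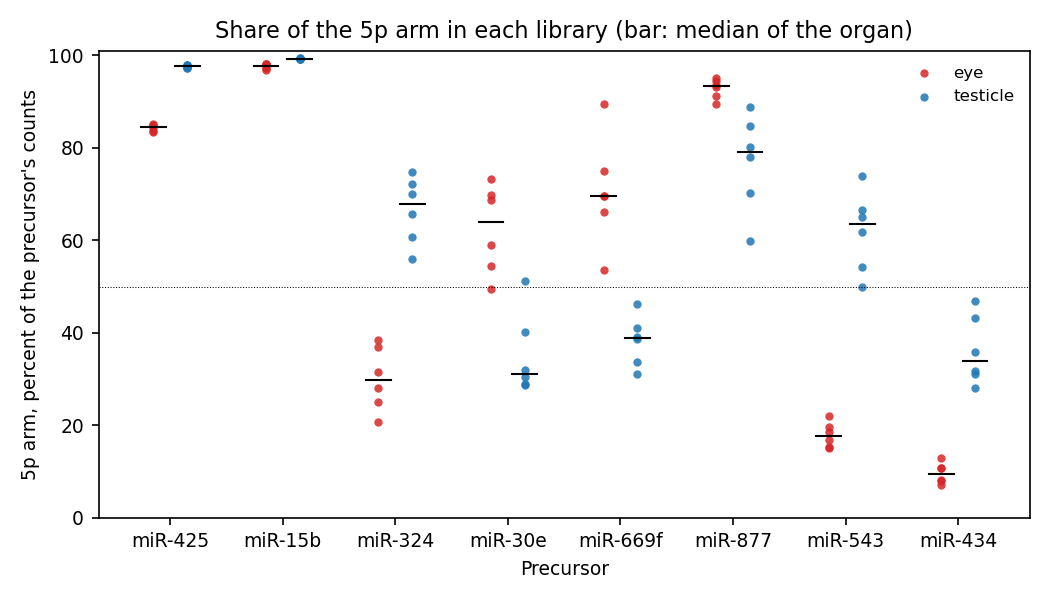
Share of the 5p strand among the counts of each of 8 precursors, 1 point per library, eye in red and testicle in blue, with a bar at the organ median and a dotted line at equal strands. MiR-324 and miR-669f lie on opposite sides of that line in the 2 organs.

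The organs were also compared on each side of the body alone. With left libraries alone 412 miRNAs were called and with right libraries alone 438, and of 546 tested on both sides, 379 were called on both in the same direction and none in opposite directions. The test of whether the contrast differed between sides called 0 of 551 miRNAs by edgeR, with 19 at an unadjusted p under 0.05. The lowest p was that of miR-183-5p, with a difference between sides of 1.10 on the log2 scale (SE 0.29, unadjusted p 0.0023, edgeR adjusted p 0.84). Without left eye 2 the test called 1 miRNA.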

How the data were processed

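Mature miRNAs were counted by small RNA sequencing in eye and testicle of male mice, and the 12 libraries of these organs were analysed here. The authors deposited whole-number counts per mature miRNA, 1 table per library, not normalized. Per the labels' protocols, RNA was prepared on spin columns and sequenced by the BGI-500 procedure, and the submitters' processing notes name the build GRCm38.p6. How reads were aligned and counted, and what was done with reads matching several miRNAs, is not given in the sources used here. In 10 sets, 2 or 3 names had identical counts in every library, and the 12 surplus names held 0.109% to 0.149% of eye counts and 3.64% to 5.54% of testicle counts. They were kept, and merging them is among the alternatives.

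The effect of organ was tested in edgeR 4.0.16 (R 4.3.3), with the filterByExpr filter by organ (551 of 1431 miRNAs kept, and 0.142% of counts left out), TMM scaling, the robust quasi-likelihood test and a threshold of 0.05 on p adjusted by Benjamini-Hochberg. Organ by side was tested in a second fit with an interaction term. On simulated counts of 553 miRNAs the procedure recovered 73.9% of 2-fold and 100% of 4-fold changes, and 2.72% of its calls were false. In that simulation a minority of miRNAs changed, by 1.5- to 8-fold in random directions, with 1 common dispersion. In the data most tested miRNAs were called and many folds were larger, so these rates need not hold for the calls here. Strand shares used log2 of (5p count + 1) over (3p count + 1) per library, an exact permutation test of the mean difference, and adjustment over precursors. On simulated counts of 140 precursors with 4-fold changes this recovered 93.0%, and with the stricter filter 100% over 80 precursors. Alternatives were another scaling, other filters, DESeq2 1.42.0, a replicate block, 1 side alone, merged names and leaving out libraries.

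The members of each list, the lists and the tests were chosen with earlier results of these data known. The miRNAs named are taken from a rule: 14 per direction with the largest change among called miRNAs with at least 100 CPM in the higher organ and no overlap, the 8 most abundant per organ, up to 4 of the most abundant per list, and 5 abundant ones that did not differ. From these, the ones the results turn on are printed. Others were added after their values were seen, to complete counts of 5 or fewer, or as members of a seed group, a strand pair or a neighbouring precursor pair. Sequences and positions are those of RefSeq and host genes those of GENCODE M21, both on GRCm38, with a position for 1421 of 1431 miRNAs and a mature sequence for 1209.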

Additional observations from a re-analysis of the deposited data

Results flagged for a closer look

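In each group of 6 libraries, a value that stood far from the other 5 relative to the range of the group was marked by Dixon's test for outliers. Over 84 miRNAs and the strand ratios of 8 precursors, examined in each organ, 15 values were marked, and chance marks about 1 in 20. Of these, 7 were the highest values of right eye 3, and 3 were the highest of left testicle 1. The levels are TMM-scaled CPM, and right eye 3 had the lowest scaling factor of the eyes (0.999, against 1.18 to 1.39). Whether its marked levels stand out on library totals alone was not tested.

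In right eye 3, miR-16-5p was at 18083 CPM (12857 in the next library) and miR-15b-5p at 389 CPM (next 248). The same library held 22.9 CPM of miR-202-5p (next 7.82), 19.6 CPM of miR-363-3p (next 8.84), 2.45 CPM of miR-741-3p (next 0.827) and 3.68 CPM of miR-871-3p, which was listed at 0 in the other 5 eye libraries. MiR-202-5p, miR-741-3p and miR-871-3p were higher in the testicle. Its log2 ratio of the 5p to the 3p strand of miR-211 was 11.35 (next 9.60).

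In left testicle 1, miR-16-5p was at 60392 CPM (next 47659), miR-196a-5p at 1006 CPM (next 221) and miR-32-5p at 515 CPM (next 429.9). In right testicle 1, miR-29b-3p was lowest at 596 CPM (next 823) and the X-linked miR-547-3p highest at 6164 CPM (next 3495). In right testicle 3 the log2 strand ratio of miR-204 was 11.61 (next 9.09). In left eye 1, miR-451a, which red cells carry, was at 3340 CPM (next 1762). In right eye 1, miR-532-3p was at 145.3 CPM (next 33.8).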

How the results depend on the processing

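Without the filter on low counts, 327 miRNAs were called higher in the eye and 600 differed at least 2-fold. More miRNAs were tested and the scaling moved too, and the cause was not tested further. Strand ratios were called for 18 precursors with at least 1000 counts per strand and for 27 with at least 10 counts per strand in each organ (chosen after seeing the data), where fewer precursors were tested. Leaving out 1 library at a time gave 438 to 478 called miRNAs, 371 to 404 at least 2-fold, 50 to 59 strand ratios and 0 to 1 interactions of organ and side. The 1 interaction was called without left eye 2. Scaling to library totals alone gave 265 higher and 201 lower.

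Same-numbered eye and testicle libraries correlated at -0.20 to 0.15 in their deviations from the group means. Such values cannot tell whether same-numbered eye and testicle libraries share mice, since a mouse need not shift both organs alike. Same-numbered left and right testicle libraries correlated at 0.25 to 0.30 and unlike-numbered ones at -0.20 to -0.10, whereas same-numbered left and right eyes were at -0.44 to -0.12. With left and right summed by number (chosen after seeing the data), miR-126a-3p (edgeR adjusted p 0.078), miR-496a-3p (0.084) and the 5p strands of miR-486 (0.084) lost their calls. With the replicate number as a block, 454 miRNAs were called (213 higher and 241 lower in the eye), with 56 strand ratios and 0 interactions.

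Values for single miRNAs were compared for at most 84 miRNAs per alternative, not for all tested ones. Many of these were picked for a large change without overlap or for abundance. The alternatives that leave out 1 library also share most of their data. How stable the other tested miRNAs were cannot be read from these values. Over all alternatives, 2088 values kept their direction and their side of the threshold, 45 lost the call, 13 gained it and 29 turned their direction. For the turned ones the cause was not tested. With library totals alone the log2 fold change was 0.48 for miR-20b-5p, 0.14 for miR-126a-3p, 0.45 for miR-30a-5p, 0.27 for miR-379-5p and 0.43 for miR-92a-3p. With no filter it was 0.23 for miR-20b-5p, 0.22 for miR-30a-5p, 0.0315 for miR-379-5p and 0.20 for miR-92a-3p. For miR-20b-5p it was 0.0204 with relative log expression scaling, 0.0209 with left testicle 1 as TMM reference, 0.0167 with DESeq2 and 0.00911 with at least 10 CPM in 6 libraries. With right libraries only it was 0.0443 for miR-20b-5p, 0.0922 for miR-30a-5p, -0.0108 for miR-411-5p, 1.88 for miR-532-3p and -0.16 for miR-532-5p. With left and right libraries summed by number (chosen after seeing the data) it was 0.0952 for miR-20b-5p, 0.0993 for miR-30a-5p and 0.0315 for miR-92a-3p. For miR-411-5p it was -0.00547 with identical names merged. Leaving out 1 library at a time gave -0.28 to 0.0237 for miR-20b-5p (positive without right testicle 3), -0.22 to 0.0766 for miR-30a-5p (positive without left testicle 1 or 2) and -0.00876 to 0.18 for miR-411-5p (negative without left eye 1). Without right eye 3 and left testicle 1 together (chosen after seeing the data) it was 0.13 for miR-30a-5p, -0.00638 for miR-363-3p and -0.0629 for miR-411-5p.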
